A study of Mus musculus with 47 samples.

Results

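The metallothioneins Mt1, Mt2 and Mt3 and 7 genes of antioxidant defence (Hmox1, Nqo1, Gclc, Gclm, Txnrd1, Srxn1 and Nfe2l2) were followed in the medial prefrontal cortex (PFC) of mice after chronic intermittent ethanol (CIE) vapor. Every probeset whose annotation named only 1 of these 10 genes was used, which gave 19 of the 45037 probesets of the Affymetrix Mouse 430 2.0 array: 2 for Mt1, 1 each for Mt2, Mt3, Hmox1 and Nqo1, 2 each for Gclc, Gclm and Nfe2l2, 3 for Txnrd1 and 4 for Srxn1. Where a gene had several, its probesets are lettered in the order of their mean over the 47 arrays, from A for the highest. Adult male C57BL/6J mice breathed ethanol vapor at 10 to 13 mg per l of air (CIE) or air alone (Ctrl) for 16 h a day on 4 days, followed by 7 days of abstinence, for 4 cycles. All mice received pyrazole (1 mmol/kg), an inhibitor of alcohol dehydrogenase, which CIE mice received together with an ethanol injection of 1.6 g/kg and Ctrl mice with saline. The mice were killed 0h, 8h, 72h or 7d after vapor exposure ended, with 6 mice in each group apart from CIE 8h, which had 5, so that 47 arrays fell into 8 groups and every time had its own Ctrl mice. Each array came from 1 mouse. Levels are log2 values, and a difference of 1 is a doubling.

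Metallothioneins are small cysteine-rich proteins that bind zinc and copper and also react with oxidants. Mt1 and Mt2 are made in many tissues, in the brain mostly by astrocytes, and are transcribed more when free zinc activates the factor MTF-1, which binds metal response elements, or when glucocorticoids or inflammatory signals act. Mt3 is a mainly neural member of the family that responds little to metals. Nfe2l2 encodes NRF2, a transcription factor that is held back by KEAP1 until electrophiles or oxidants release it and that then acts through antioxidant response elements. Hmox1 (heme oxygenase), Nqo1 (a quinone reductase), Gclc and Gclm (the catalytic and the modifier subunit of the enzyme that starts glutathione synthesis), Txnrd1 (thioredoxin reductase) and Srxn1 (sulfiredoxin, which repairs overoxidised peroxiredoxins) are widely used as readouts of NRF2.

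The promoters of the members the results turn on are shown with letter matches to the metal and antioxidant response elements. Of the 10 genes, 8 (all but Gclc and Hmox1) had a promoter window in the RefSeq table (build GRCm38.p6), each of 300 bases, 250 before and 50 after an annotated start. Metal response elements were searched as TGCACNC or TGCGCNC on both strands, and at least 1 match stood in 25.7% of the 32851 windows of all genes and at least 3 in 1.97%. The windows held 3 matches for Mt1, 4 for Mt2 and 1 for Mt3. Slc30a1, a zinc exporter that shares this regulation with Mt1 and Mt2 and that is described with the zinc transporters, had 2. These 4 windows are printed 5′ to 3′ with the matches to metal response elements in capitals.
Mt1 (chr8:94178839-94179138, plus strand): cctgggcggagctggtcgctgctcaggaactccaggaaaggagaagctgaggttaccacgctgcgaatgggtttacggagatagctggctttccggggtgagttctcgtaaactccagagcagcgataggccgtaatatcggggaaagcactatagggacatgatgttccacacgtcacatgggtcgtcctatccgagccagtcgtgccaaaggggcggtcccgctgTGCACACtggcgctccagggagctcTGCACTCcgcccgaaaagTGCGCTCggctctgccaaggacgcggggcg
Mt2 (chr8:94172368-94172667, plus strand): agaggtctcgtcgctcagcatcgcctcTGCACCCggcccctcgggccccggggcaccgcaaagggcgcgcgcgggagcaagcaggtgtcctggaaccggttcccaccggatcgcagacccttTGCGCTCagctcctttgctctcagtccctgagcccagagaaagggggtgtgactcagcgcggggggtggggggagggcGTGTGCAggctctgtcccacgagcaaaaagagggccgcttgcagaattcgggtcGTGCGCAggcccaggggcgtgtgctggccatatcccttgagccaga
Mt3 (chr8:94152357-94152656, plus strand): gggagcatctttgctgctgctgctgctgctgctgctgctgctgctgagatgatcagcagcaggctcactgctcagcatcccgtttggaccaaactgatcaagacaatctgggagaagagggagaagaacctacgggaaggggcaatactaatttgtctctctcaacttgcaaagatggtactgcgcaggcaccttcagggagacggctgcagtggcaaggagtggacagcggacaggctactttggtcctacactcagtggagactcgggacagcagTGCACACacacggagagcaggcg
Slc30a1 (chr1:191906531-191906830, plus strand): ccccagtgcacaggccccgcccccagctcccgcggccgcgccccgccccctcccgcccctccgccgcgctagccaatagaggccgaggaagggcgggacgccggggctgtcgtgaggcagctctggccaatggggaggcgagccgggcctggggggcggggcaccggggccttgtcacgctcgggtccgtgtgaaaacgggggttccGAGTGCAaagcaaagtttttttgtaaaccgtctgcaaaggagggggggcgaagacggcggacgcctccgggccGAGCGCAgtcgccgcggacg
Antioxidant response elements were searched as TGACNNNGC on both strands, and at least 1 match stood in 12.4% of all windows. There was 1 match each in the windows of Mt2, Gclm, Srxn1, Nfe2l2 and Slc30a1 and in 1 of the 3 windows of Txnrd1, and none in those of Mt1, Mt3 and Nqo1. In the Gclm window, which also held 3 matches to the metal response element, the match overlapped 1 of them. The Srxn1 window is printed with its match to the antioxidant response element in capitals, since Srxn1 gave the only member call at 0h. That match lies after the annotated start. The run tgagtcagc before the start has G for C in the searched letters, so it was not counted and stays in lower case.
Srxn1 (chr2:152105274-152105573, plus strand): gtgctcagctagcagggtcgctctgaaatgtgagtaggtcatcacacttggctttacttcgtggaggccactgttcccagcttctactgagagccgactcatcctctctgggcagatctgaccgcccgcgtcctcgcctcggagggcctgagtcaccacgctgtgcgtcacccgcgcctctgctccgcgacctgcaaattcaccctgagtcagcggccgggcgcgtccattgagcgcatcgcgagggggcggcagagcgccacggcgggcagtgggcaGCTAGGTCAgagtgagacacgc
A match is a run of letters only, and none was tested for binding.

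The arrays carried the tissue on their labels. The 7 neuronal markers examined averaged between 12.05 and 12.12 in all 8 groups. Astrocyte markers, which are relevant to Mt1 and Mt2, averaged between 10.32 and 10.53, and none of their 9 reference probesets passed the test between CIE and Ctrl at any time. Of 23 other probesets of these astrocyte genes, 1 was called higher and 3 lower at 0h (Aldh1l1, Sox9, S100b and Slc1a2) and 1 lower at 8h (Aqp4). In bulk tissue, fewer cells of a type and less RNA per cell cannot be told apart. Striatal markers were higher in CIE 0h mice (list means 8.76 to 10.73) than in Ctrl 0h mice (8.48 to 9.12), with 7 of 7 reference probesets above and none called, and with 1 of 8 other probesets called higher (Rgs9). The markers of meninges and choroid plexus were lower at 0h in 6 of 7, with 1 called (Kl). Of the 2 blood markers, Alas2 was called lower at 0h (-0.59) and 8h (-0.77). The other, Hba-a1, was higher at 0h and lower at 8h and was not called. The mean of the 2 ranged from 4.91 to 5.24 in CIE 0h mice, against 5.10 to 5.35 in Ctrl 0h mice. At 8h it ranged from 4.62 to 5.01 in CIE mice, against 4.98 to 5.43 in Ctrl mice. Of 6 microglial markers, P2ry12 was called lower at 8h (-0.57), while 3 of the 6 were higher, with a list median of 0.03. The part of the blood and microglial markers in the results was not tested. The labels name 2 repeat groups of arrays, and repeat group 2 held only 5 arrays, 2 of CIE 8h and 3 of Ctrl 8h. The array of CIE 8h mouse 15, from repeat group 2, stood apart with a mean correlation of 0.967 to the other arrays, against 0.985 for the next lowest and a median of 0.992. Its removal is given beside the 8h values of the members that it changed most.

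Directly after the last exposure, 1 of the 19 member probesets differed between CIE and Ctrl, against 7.28% of all probesets (limma over all 47 arrays, Benjamini-Hochberg adjusted p of at most 0.01, referred to below as called). This was probeset A of Srxn1, which ranged from 10.45 to 10.73 in CIE mice, with a median of 10.67, against 9.94 to 10.40 in Ctrl mice, with a median of 10.29. No CIE mouse overlapped a Ctrl mouse. Srxn1 was 1.32-fold higher in CIE (log2 difference 0.40 ± 0.09 SE, limma adjusted p = 0.00298, 6 of 6 CIE mice above the Ctrl mean). The call was lost without Ctrl 0h mouse 20 (0.34, limma adjusted p = 0.0127), and an average over the 4 Srxn1 probesets was not called (0.27, limma adjusted p = 0.0291). The other Srxn1 probesets gave 0.31, 0.20 and 0.15 at 0h, none of them called.

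Mt2 came next at 0h. CIE mice ranged from 12.71 to 13.05, with a median of 12.94, and Ctrl mice from 12.22 to 12.77, with a median of 12.71, so that the groups overlapped in a narrow band. The difference of 0.28 (95% interval 0.10 to 0.46) had a limma adjusted p of 0.0282 and was not called. Of 11 other settings, 1 called it, with the mean of the astrocyte markers as a term (0.31, limma adjusted p = 0.00883). Over the 11 the difference ranged from 0.22 to 0.31 (limma adjusted p up to 0.104), and with 1 mouse left out it was called in 0 of 12 fits (0.20 to 0.32, limma adjusted p up to 0.123). The smallest of these, 0.20, was that without Ctrl 0h mouse 12. Hmox1 ranged from 6.49 to 6.68 in CIE mice and from 6.16 to 6.42 in Ctrl mice at 0h, without overlap, and its difference of 0.27 (95% interval 0.07 to 0.47) was not called (limma adjusted p = 0.0529). Nqo1 (0.23), Gclm probeset A (0.14) and Gclc probeset A (0.08) lay on the higher side without being called. The 2 probesets of Mt1 were not called at 0h and gave 0.06 (95% interval -0.08 to 0.20) and 0.01 (95% interval -0.21 to 0.23). Without Ctrl 0h mouse 12 the first of these values was -0.02. Mt3 was 10.40 ± 0.17 in CIE and 10.55 ± 0.17 in Ctrl (SD, n = 6 each), a difference of -0.16 that was not called. Over the 19 probesets, 14 were higher and 5 lower in CIE, with a median difference of 0.10, against -5.98e-05 over all probesets, of which 50.0% were higher.

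**Figure D1:**
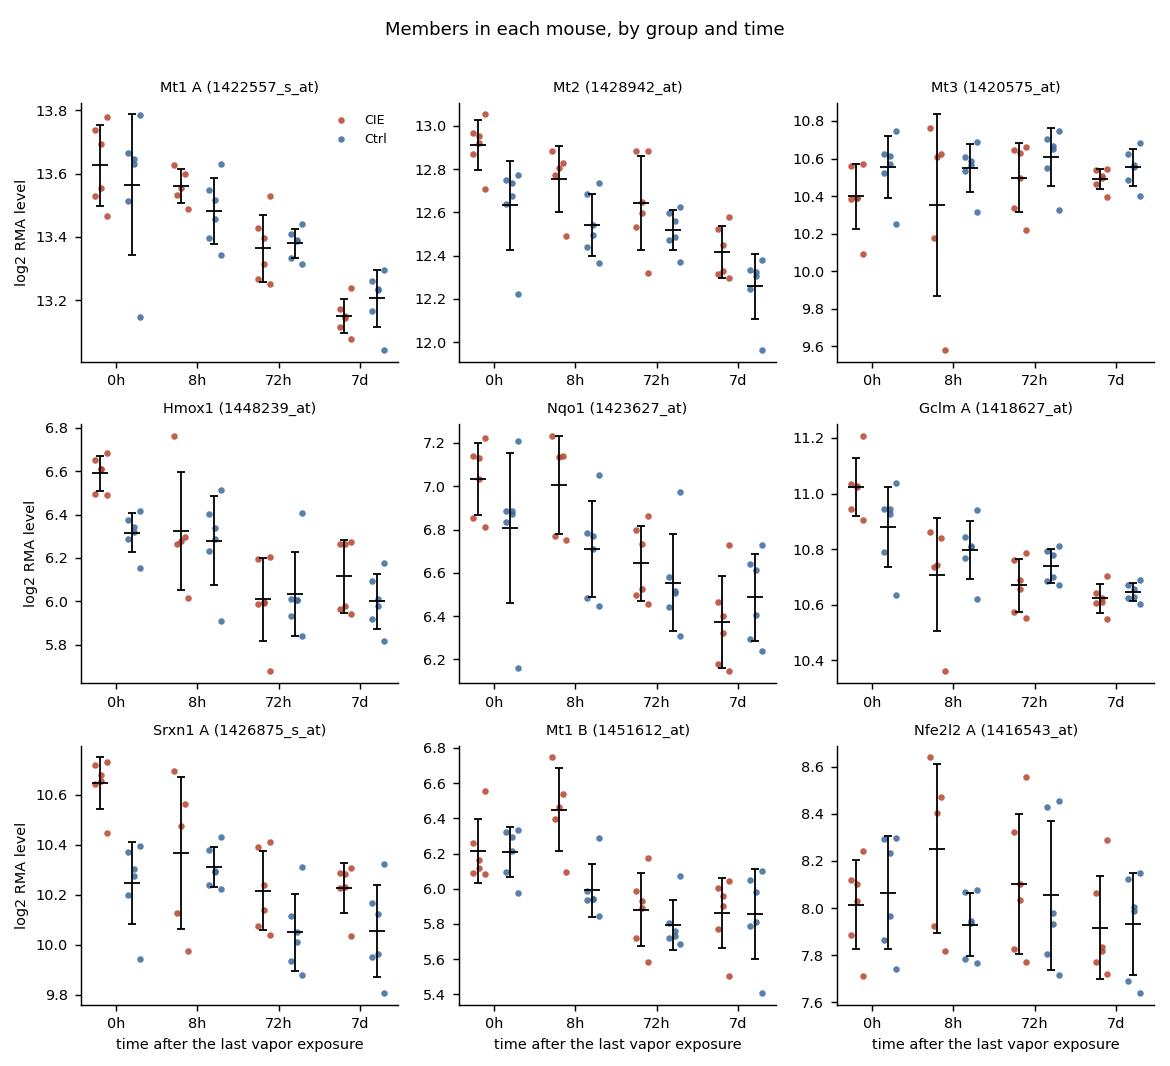
Log2 RMA level (vertical axis) of 9 member probesets in each mouse at 0h, 8h, 72h and 7d after the last vapor exposure, CIE left of Ctrl. Each point is 1 mouse, and lines give the mean and SD of the group (n = 6, or 5 in CIE 8h). Srxn1 probeset A and Hmox1 show no overlap between CIE and Ctrl at 0h, and Mt1 probeset A and Mt2 stand lowest at 7d in CIE and in Ctrl alike.

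At 8h, again 1 of 19 member probesets was called, against 3.39% of all probesets. It was probeset B of Mt1, which read 6.75, 6.46, 6.54, 6.40 and 6.10 in CIE mice 15, 23, 40, 51 and 69, against 5.85 to 6.29 in Ctrl mice, with a median of 5.94. The lowest CIE mouse lay within the range of the Ctrl mice. The difference of 0.46 ± 0.11 SE (limma adjusted p = 0.00837) was 0.70 within repeat group 2, to which mouse 15 belongs, and 0.27 within repeat group 1. Without CIE 8h mouse 15 it was 0.38 (limma adjusted p = 0.0461), and the call was lost in 9 of 11 fits with 1 mouse left out, those without CIE mice 15, 23, 40 or 51 or Ctrl mice 32, 42, 50, 66 or 79 (limma adjusted p from 0.00269 to 0.0461 over the 11). It was also lost as an average over both Mt1 probesets (0.27, limma adjusted p = 0.0177) and in repeat group 1 alone (limma adjusted p = 0.314). Probeset A of the same gene was not called: CIE mice ranged from 13.49 to 13.63 and Ctrl mice from 13.34 to 13.63, a difference of 0.08 (95% interval -0.07 to 0.22, limma adjusted p = 0.49). Its name on the array ends in _s_at, which marks probesets whose probes match more than 1 transcript in the design, so the signals of related transcripts cannot be told apart in it.

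Mt2 at 8h was 12.76 ± 0.15 in CIE (SD, n = 5) and 12.54 ± 0.14 in Ctrl (SD, n = 6), a difference of 0.21 that was not called (limma adjusted p = 0.129). Without mouse 15 it was 0.28 (limma adjusted p = 0.0766). Nqo1 was 0.30 higher and Nfe2l2 probeset A 0.32 higher in CIE, neither called, and both came mostly from repeat group 2, where their differences were 0.61 and 0.62, against 0.04 and 0.12 in repeat group 1. Without mouse 15 they were 0.24 and 0.23. The 2 lowest Mt3 readings at 8h, 9.58 and 10.18, were those of CIE mice 15 and 23 of repeat group 2, while the other 3 CIE mice read 10.63, 10.76 and 10.61. Srxn1 probeset A split in the same way, with 9.98 and 10.13 in CIE mice 15 and 23 and 10.70, 10.56 and 10.47 in CIE mice 40, 51 and 69, and its difference from Ctrl at 8h was 0.06, or 0.15 without mouse 15. For Mt3 the difference was -0.20, or -0.00644 without mouse 15. Of the 19 probesets, 15 were higher and 4 lower at 8h, with a median difference of 0.08, against 0.00731 over all probesets. Without mouse 15 the median was 0.14, no member was called, and 1.35% of all probesets were.

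At 72h none of the 19 probesets was called, against 0.528% of all probesets. An unadjusted limma p under 0.05 was found for 1, against 14.3% of all probesets. At 7d none was called either, against 0.948% of all probesets, with 2 at an unadjusted limma p under 0.05, against 17.5%. The median difference was 0.07 at 72h and 0.02 at 7d, against -0.00244 and -0.00456 over all probesets. For Mt1 probeset A the difference at 7d was -0.06 (95% interval -0.19 to 0.08), for Mt2 0.16 (95% interval -0.02 to 0.34) and for Hmox1 0.12 (95% interval -0.08 to 0.31). The difference nearest to a call at 7d was that of Txnrd1 probeset C (-0.28, limma adjusted p = 0.04), whose mean level of 3.95 stood at the 6.92 percentile of all probesets. Srxn1 probeset A stayed on the higher side in CIE, by 0.17 at 72h and 0.17 at 7d, without being called.

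An F test over the 4 times together called 1 of the 19 probesets, again Srxn1 probeset A (limma adjusted p = 0.00516), against 13.6% of all probesets. When the CIE effect at 8h, 72h or 7d was set against that at 0h, none of the 19 was called (limma, backgrounds of 3.41%, 1.8% and 0.273%). An unadjusted p under 0.05 was found for 4, 3 and 1 of them, against 24.7%, 20.0% and 16.6% of all probesets. For Srxn1 probeset A the effect at 8h was 0.34 smaller than that at 0h (95% interval of the difference -0.62 to -0.07, limma adjusted p = 0.105), and without CIE 8h mouse 15 the effects differed by -0.24 (limma adjusted p = 0.25). For Mt1 probeset B it was 0.45 larger (95% interval 0.13 to 0.77, limma adjusted p = 0.0611), or 0.38 without that mouse (limma adjusted p = 0.13).

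**Figure D2:**
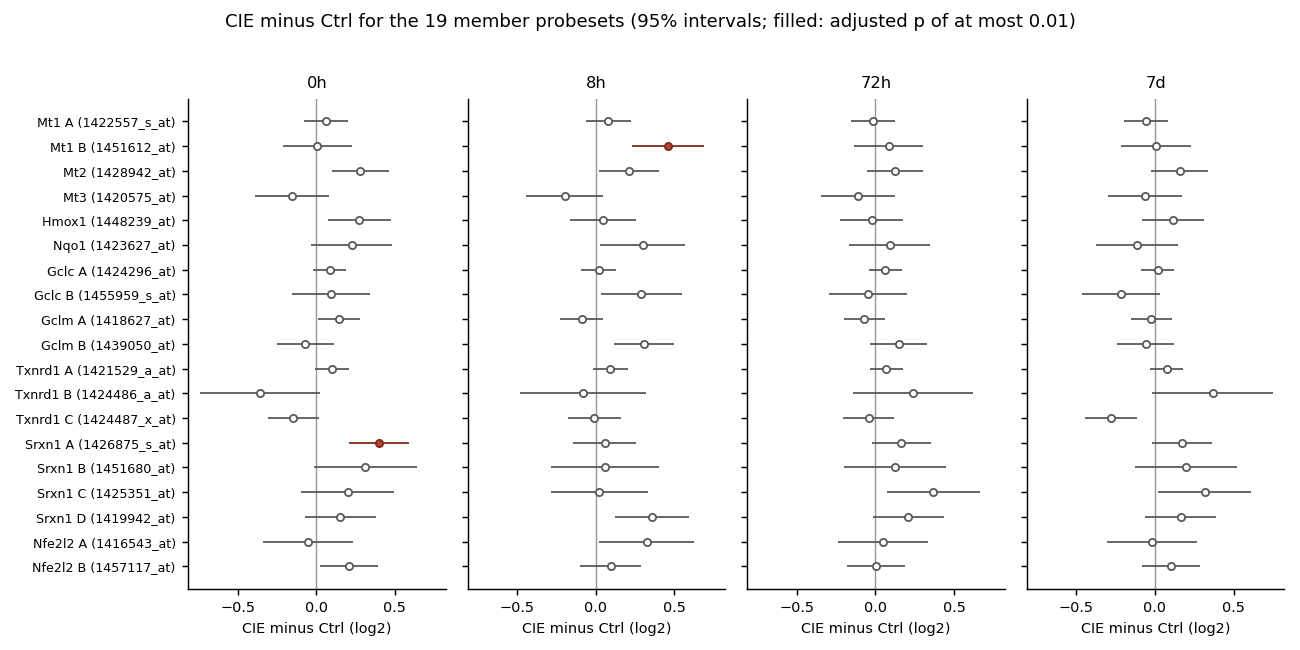
CIE minus Ctrl (log2, horizontal axis) with 95% intervals for the 19 member probesets (vertical axis) at 0h, 8h, 72h and 7d, with filled points where the limma adjusted p was at most 0.01. The 2 filled points are Srxn1 probeset A at 0h (0.40) and Mt1 probeset B at 8h (0.46).

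More members were called over time in CIE mice than between CIE and Ctrl. Within CIE mice, an F test over the 4 times called 7 of the 19 probesets, against 10% of all probesets: both Mt1 probesets, Mt2, Hmox1, Nqo1, Gclm probeset A and Srxn1 probeset A. At 8h 1 and at 72h 3 of the 19 were called lower than at 0h, against 2.63% and 2.06% of all probesets. In the comparison of CIE 7d with CIE 0h, 6 of the 19 were called and all 6 were lower at 7d, against 2.08% of all probesets called lower. The choice of these pairwise comparisons of times followed the F tests. Times 0h, 72h and 7d all lie in repeat group 1.

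Mt1 probeset A ranged from 13.08 to 13.24 in CIE 7d mice, with a median of 13.15, against 13.47 to 13.78 in CIE 0h mice, with a median of 13.62. No mouse of one time overlapped the other. The fall of 0.48 on the log2 scale (95% interval of the difference -0.61 to -0.34, limma adjusted p = 1.51e-05) is 0.719-fold. Mt2 ranged from 12.29 to 12.58 in CIE 7d mice and from 12.71 to 13.05 in CIE 0h mice, again without overlap, and fell by 0.50 (limma adjusted p = 3.62e-04). Between these times, at 72h, Mt1 probeset A averaged 13.36 ± 0.11 and Mt2 12.64 ± 0.22 (SD, n = 6). Mt3 was not called: it was 10.49 ± 0.05 at 7d and 10.40 ± 0.17 at 0h in CIE mice (SD, n = 6 each), a difference of 0.09 (95% interval -0.14 to 0.33, limma adjusted p = 0.639).

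Of the enzymes, 4 fell in CIE mice over the same interval. Hmox1 ranged from 5.94 to 6.27 in CIE 7d mice and from 6.49 to 6.68 in CIE 0h mice, without overlap (-0.47, limma adjusted p = 0.00177), and it was already lower at 72h (-0.58, limma adjusted p = 1.6e-04). Nqo1 ranged from 6.15 to 6.73 in CIE 7d mice and from 6.81 to 7.22 in CIE 0h mice (-0.66, limma adjusted p = 8.29e-04), which was the widest fall among the 19. Gclm probeset A was lower than at 0h at 8h (-0.31, limma adjusted p = 0.00146), at 72h (-0.35, limma adjusted p = 4.43e-04) and at 7d (-0.40, limma adjusted p = 9.22e-05). The 8h call was lost without CIE 8h mouse 15 (-0.23, limma adjusted p = 0.0127), with repeat group as a term (-0.24, limma adjusted p = 0.0145), in repeat group 1 alone (-0.21, limma adjusted p = 0.0304) and with array weights (-0.20, limma adjusted p = 0.0106). Averaged over both Gclm probesets, the 8h and the 72h calls were lost (-0.11 and -0.19, limma adjusted p = 0.224 and 0.0267). Srxn1 probeset A was lower at 72h (-0.43, limma adjusted p = 0.00249) and at 7d (-0.42, limma adjusted p = 0.00363). Its call at 7d was lost without CIE 0h mouse 5 (-0.41, limma adjusted p = 0.0107) or CIE 7d mouse 65 (-0.38, limma adjusted p = 0.0138). Averaged over the 4 Srxn1 probesets, the changes were -0.29 at 72h and -0.24 at 7d and neither was called (limma adjusted p = 0.0235 and 0.0577), and with astrocyte markers as a term the 72h call was lost (-0.32, limma adjusted p = 0.026). The 7d calls of Mt1 probeset A, Mt2, Hmox1, Nqo1 and Gclm probeset A were kept in 12 of 12 fits with 1 mouse left out. Both Gclc probesets lay lower at 7d without being called (-0.20 and -0.39, limma adjusted p = 0.0114 and 0.0365).

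Ctrl mice, which breathed air alone, also had lower levels at 7d, though only 1 probeset was called. An F test over time within Ctrl called 1 of the 19, Mt1 probeset A (limma adjusted p = 0.00394), against 1.72% of all probesets. Ctrl 7d mice ranged from 13.04 to 13.30, with a median of 13.23, against 13.15 to 13.79 in Ctrl 0h mice, with a median of 13.64. The groups overlapped through Ctrl 0h mouse 12 alone, which read 13.15. The difference was -0.36 (95% interval -0.50 to -0.22, limma adjusted p = 0.00722), and of all probesets 0.144% were called in this comparison. That call was kept in 3 of 12 fits with 1 mouse left out and was lost without Ctrl 0h mice 2, 20, 48, 56 or 78 or Ctrl 7d mice 28, 46, 70 or 80 (limma adjusted p up to 0.0341). Without Ctrl 0h mouse 12 the change was -0.44, and the smallest limma adjusted p over the 12 fits was 2.24e-05. That mouse was also low in Mt2 (12.22, against 12.64 to 12.77 in the other Ctrl 0h mice) and Nqo1 (6.16, against 6.83 to 7.21). Mt2 was lower by 0.37 in Ctrl 7d mice (limma adjusted p = 0.0282), Hmox1 by 0.32, Nqo1 by 0.32 and Gclm probeset A by 0.23, none of them called. Over the 19 probesets the median change between 0h and 7d was -0.24 in CIE and -0.18 in Ctrl, against -0.00516 in CIE and -0.00138 in Ctrl over all probesets. In CIE 14 of 19 were lower at 7d, and in Ctrl 16 of 19.

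The falls in CIE and in Ctrl were not shown to differ. For Mt1 probeset A the change in CIE minus the change in Ctrl was -0.12 (95% interval -0.31 to 0.08, limma adjusted p = 0.595), for Mt2 -0.12 (95% interval -0.38 to 0.13), for Hmox1 -0.16 (95% interval -0.44 to 0.12), for Gclm probeset A -0.17 (95% interval -0.35 to 0.02) and for Nqo1 -0.34 (95% interval -0.70 to 0.03, limma adjusted p = 0.348). For Mt1 that interval includes a further -0.31 in CIE, beside a change of -0.36 in Ctrl. Mice killed at 0h came straight from the chambers, while those at 7d had been out of them for 7 days, so time since the chamber, since pyrazole and injection, and since handling cannot be told apart here. None of the 9 reference probesets of the astrocyte markers was called in these comparisons, while of their 23 other probesets 1 was called higher and 1 lower in CIE 7d against CIE 0h (Aldoc and Slc1a2) and none in Ctrl. The mean of the astrocyte markers was 10.36 ± 0.09 at 7d and 10.32 ± 0.04 at 0h in CIE (SD, n = 6 each), and 10.43 ± 0.09 at 7d and 10.38 ± 0.07 at 0h in Ctrl (SD, n = 6 each).

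**Figure D3:**
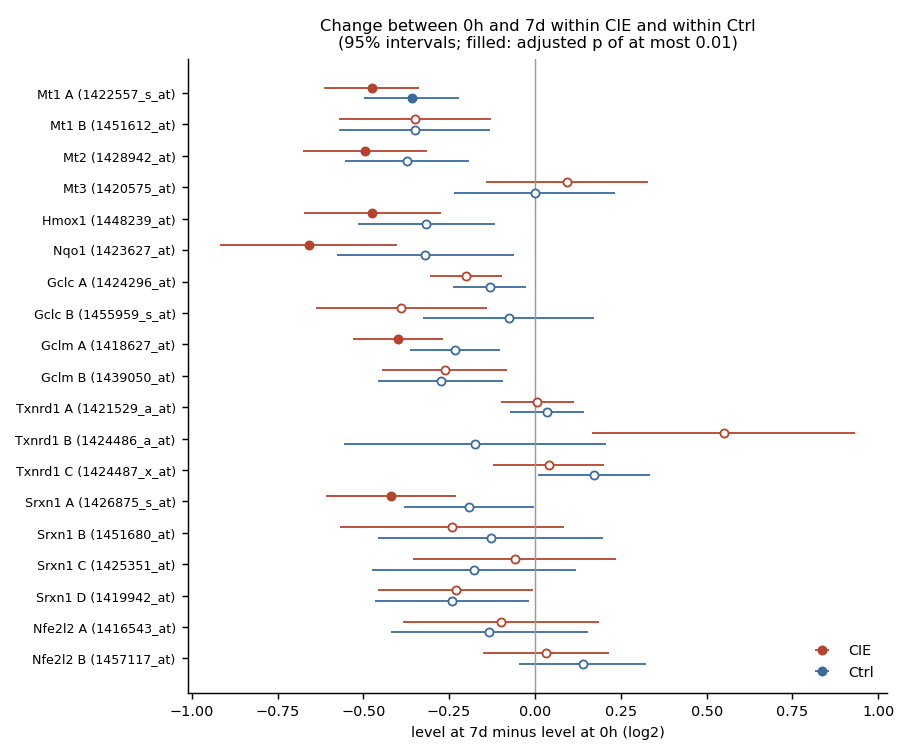
Level at 7d minus level at 0h (log2, horizontal axis) with 95% intervals for the 19 member probesets, within CIE (upper point of each pair) and within Ctrl (lower point), with filled points where the limma adjusted p was at most 0.01. In all, 6 probesets are filled for CIE and 1 for Ctrl, all below 0, and the intervals of CIE and Ctrl overlap for each probeset.

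Probesets of 1 gene did not always read alike. For Srxn1, probesets A, B and C moved together over the 47 arrays (Pearson r between 0.79 and 0.87), while D did not (r between -0.06 and 0.19). After group means were removed, r was between 0.81 and 0.87 among A, B and C. Between D and each of them it was then negative, from -0.51 to -0.45. For Txnrd1, probeset A was flat, between 9.70 and 9.83 in all 8 group means, whereas B was -0.36 at 0h and 0.37 at 7d in CIE against Ctrl, with neither value called and single mice between 4.38 and 5.68. The 2 Gclm probesets differed at 8h, where B was 0.31 higher in CIE without overlap between the groups (limma adjusted p = 0.0307) and A was -0.09. Without CIE 8h mouse 15 these values were 0.26 and -0.00344. Nfe2l2 itself, the gene of NRF2, was not called by either probeset in any comparison with Ctrl or over time. Its probeset A averaged between 7.92 and 8.25 over the 8 groups.

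Mt1 probeset A and Mt2 moved together from mouse to mouse, and Mt1 probeset B followed them less. Over the 47 arrays Mt1 probeset A and Mt2 had a Pearson r of 0.82, and of 0.75 after group means were removed. For Mt1 probeset B and Mt2 these values were 0.52 and 0.22, and for the 2 Mt1 probesets 0.59 and 0.23. Mt1 probeset A and Mt3 had an r of -0.20. Probeset A cannot tell related transcripts apart, and whether it shares signal with Mt2 was not tested. These are descriptions, since the arrays share their groups and their normalization. The genes other than the 10 members whose pattern was most like Mt1 probeset A were Gstm1 (a glutathione S-transferase, r = 0.87), Aox1 (an aldehyde oxidase, r = 0.87) and Etnppl (a phospholyase, r = 0.85). For Mt2 they were Mgst1 (a microsomal glutathione S-transferase, r = 0.75), Gstm1 (0.75) and Rida (0.74), and for Mt1 probeset B Aox1 (0.74), Spink8 (0.74) and S100a10 (0.73). The nearest patterns to Mt3 were Washc4 (0.90), Cd99l2 (0.90) and Hspa13 (0.89), those to Hmox1 were Krtap13 (0.78), Slfn8 (0.77) and Sbsn (0.76), and those to Nfe2l2 probeset A were Syngr2 (0.86), Tjp1 (0.85) and Cpne3 (0.84).

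Gstm1, Aox1 and Mgst1, named above for their likeness to Mt1 or Mt2, also fell. They were picked over these same arrays, so a shared fall was partly built into the choice and is no separate support. After group means were removed, r was 0.63 for Gstm1 and 0.70 for Aox1 with Mt1 probeset A, and 0.42 for Mgst1 with Mt2. Changes of Etnppl and Rida are not given. Gstm1, read here and in its plot from its reference probeset and not from the one most like Mt1, ranged from 9.40 to 9.68 in CIE 7d mice and from 10.20 to 10.57 in CIE 0h mice (-0.87, limma adjusted p = 1.28e-05). In Ctrl mice it ranged from 9.31 to 9.71 at 7d and from 9.45 to 10.70 at 0h (-0.82, limma adjusted p = 0.00184). Aox1 fell by 1.53 in CIE (limma adjusted p = 7.15e-06) and by 1.34 in Ctrl (limma adjusted p = 0.00184). In CIE both were kept with each mouse left out, and in Ctrl both were lost without Ctrl 0h mouse 48 or Ctrl 7d mouse 28 (largest limma adjusted p = 0.0104 for each). Mgst1 fell by 1.37 in CIE (limma adjusted p = 4.79e-05), or by 0.71 as an average over its probesets (limma adjusted p = 4.44e-05), and its change in Ctrl was -0.97 and not called (limma adjusted p = 0.017). The NRF2 targets Cbr3, a carbonyl reductase, and Ephx1, an epoxide hydrolase, fell by 0.93 and 0.91 in CIE (limma adjusted p = 1.75e-06 and 1.62e-04), against changes of -0.48 and -0.47 in Ctrl, neither of which was called. Cbr3 was already lower at 72h in Ctrl (-0.49, limma adjusted p = 0.00736), a value that was not refitted with mice left out. Cbr3 and Ephx1 were chosen after their values were seen. The changes in CIE and in Ctrl were not shown to differ for any of these 5 genes (limma adjusted p of the difference between 0.135 for Cbr3 and 0.927 for Gstm1). Of 21 measured glutathione S-transferases, 5 fell and none rose in CIE 7d against CIE 0h, with a median of -0.16. Of all probesets, 2.08% were called lower. In Ctrl 1 transferase fell, where 0.144% of all probesets were called. Falls in CIE were not particular to these genes. Of 20 glucocorticoid targets, a list described below, 9 fell in CIE (median -0.47) and none in Ctrl. Of 23 other NRF2 targets 4 fell in CIE. Of 19 genes for glutathione synthesis, recycling and peroxidases none was called in CIE.

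Lists of related genes were read through 1 reference probeset for each gene, and 153 of their 162 genes were measured. On these reference probesets, metal-handling genes were called against Ctrl at 0h and 8h about as often as all probesets. Those called were zinc transporters. Of 31 measured genes for zinc, copper and iron handling, 3 rose and none fell at 0h, 1 rose at 8h, and none was called at 72h or 7d, where 7.28% of all probesets were called at 0h and 3.39% at 8h. Of the 42 other probesets of these genes, 3 were called at each of the 2 times, among them genes of copper and iron transport: Atp7b (0.49) and Slc11a2 (-0.41) at 0h and Atox1 (-0.45) at 8h. The list's median difference was 0.07 at 0h and 0.02 at 8h. Slc30a1, the plasma membrane zinc exporter and a target of MTF-1, ranged from 10.42 to 10.62 in CIE 0h mice, with a median of 10.54, against 10.12 to 10.42 in Ctrl 0h mice, with a median of 10.24, and the groups met at their edges. It was 0.26 higher (limma adjusted p = 0.00306, 6 of 6 CIE mice above the Ctrl mean), and another of its probesets was 0.38 higher (limma adjusted p = 0.00229). The first of these calls was lost without CIE 0h mouse 5 (0.24, limma adjusted p = 0.0113) or Ctrl 0h mouse 2 (0.23, limma adjusted p = 0.011). With striatal markers as a term it was 0.20 and not called (limma adjusted p = 0.0208).

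At 8h Slc30a1 read 10.61, 10.61, 10.31, 10.56 and 10.54 in CIE mice 15, 23, 40, 51 and 69, against 10.19 to 10.37 in Ctrl mice, and only CIE mouse 40 lay in the Ctrl range. The difference was 0.26 (limma adjusted p = 0.00741), 0.24 within repeat group 1 and 0.32 within repeat group 2, and it was called in 3 of 11 fits with 1 mouse left out. The calls were lost without CIE mice 15, 23, 51 or 69 or Ctrl mice 32, 66, 75 or 79 (largest limma adjusted p = 0.029). The Golgi zinc transporter Slc30a5 was 0.27 higher at 0h (limma adjusted p = 4.72e-04), without overlap (9.95 to 10.28 in CIE and 9.69 to 9.94 in Ctrl), and was kept in 12 of 12 such fits. Without being called, Slc30a5 also averaged higher in CIE at 72h (10.06, against 9.85 in Ctrl) and 7d (10.01, against 9.82). Slc30a9 was 0.20 higher at 0h (limma adjusted p = 0.00312) and lost its call without Ctrl 0h mouse 20 (0.17, limma adjusted p = 0.0132). Mtf1, the gene of the metal sensor, was not called, with -0.06 (95% interval -0.22 to 0.10) at 0h and 0.08 (95% interval -0.09 to 0.25) at 8h.

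**Figure D4:**
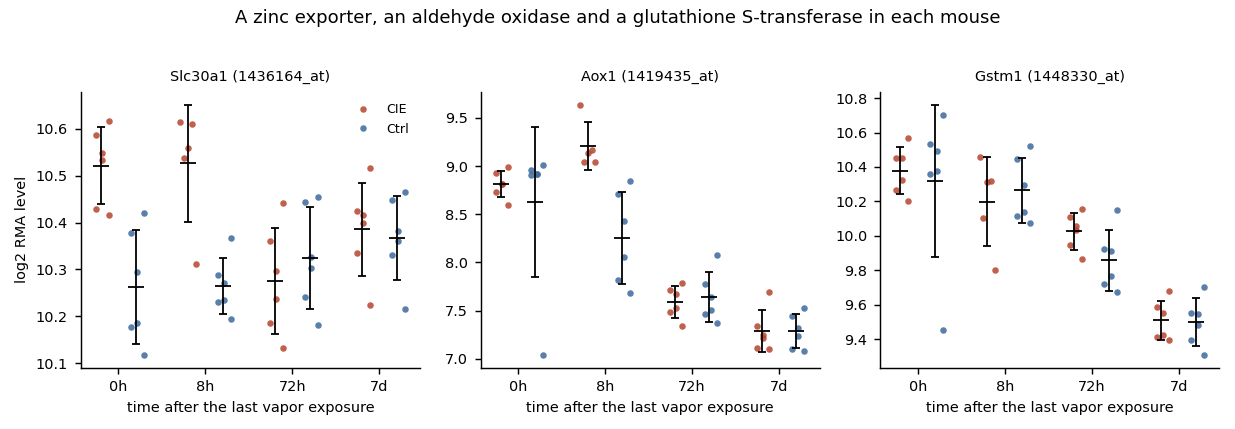
Log2 RMA level (vertical axis) of Slc30a1, Aox1 and Gstm1 in each mouse at the 4 times after the last vapor exposure, CIE left of Ctrl, with group means and SD. Slc30a1 was called higher in CIE at 0h and 8h (0.26 each), while Aox1 and Gstm1 stand lowest at 7d in CIE and in Ctrl.

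Calls against Ctrl in other parts of the antioxidant system were counted on reference probesets. Beside the counts of each list that follows stand the shares of all probesets called. These were 7.28% at 0h, 3.39% at 8h, 0.528% at 72h and 0.948% at 7d. Of 19 measured genes for glutathione synthesis, recycling and peroxidases, none was called at any time, nor was any of their 11 other probesets. The smallest p-values at 0h and 8h together were those of the glutaredoxins Glrx5 at 8h (-0.24, limma adjusted p = 0.0139) and Glrx3 at 0h (0.34, limma adjusted p = 0.0418). Of 17 thioredoxin, peroxiredoxin and sestrin genes, 2 rose at 0h, and of their 25 other probesets 3 were called higher (Txnip, Sesn1 and Txn1) and 2 lower (Txn2 and Txnl1). Sesn1, a stress-induced regulator of growth signalling, ranged from 9.51 to 10.10 in CIE 0h mice and from 9.20 to 9.47 in Ctrl 0h mice (0.50, limma adjusted p = 8.78e-05), without overlap, and was kept in 12 of 12 fits with 1 mouse left out. Txnip, which binds thioredoxin, was 0.69 higher (limma adjusted p = 0.0043), was lost without CIE 0h mouse 5 or Ctrl 0h mice 12 or 48 (largest limma adjusted p = 0.0223) and was not called with striatal markers as a term (0.59, limma adjusted p = 0.021). Prdx2, a peroxiredoxin, was the one gene of this list called at 8h on its reference probeset (-0.19, limma adjusted p = 0.00847), a call kept in 2 of 11 such fits and lost without CIE mice 15, 23 or 69 or any of the 6 Ctrl mice.

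Of 23 other NRF2 targets, 2 fell and none rose at 0h, and 1 rose at 8h, with list medians of 0.02 and 0.01. Of 26 other probesets, Trim16 (0.46) was called higher and Abcc5 (-0.35) lower at 0h. The 2 that fell were Osgin1 (-0.50, limma adjusted p = 0.00496) and Blvra, biliverdin reductase, which acts after Hmox1 in heme breakdown (-0.25, limma adjusted p = 0.00737). They were kept in 8 and 4 of 12 fits with 1 mouse left out. Osgin1 was lost without CIE mice 67 or 72 or Ctrl mice 20 or 48, and Blvra without CIE mice 5, 11 or 67 or Ctrl mice 2, 20, 48, 56 or 78 (largest limma adjusted p = 0.0164 and 0.0317). Blvra was not called with striatal markers as a term (-0.17, limma adjusted p = 0.0505). The gene that rose at 8h was Aox1, with 9.64, 9.14, 9.04, 9.17 and 9.04 in CIE mice 15, 23, 40, 51 and 69, against 7.68 to 8.85 in Ctrl mice, without overlap. Its difference was 0.95 (limma adjusted p = 0.00426), 1.54 within repeat group 2 and 0.42 within repeat group 1, and it was lost without CIE 8h mouse 15 (0.84, limma adjusted p = 0.0228) or without Ctrl 8h mice 32 or 50. Of 16 partners and regulators of NRF2, among them Keap1 and Bach1, none was called at any time on its reference probeset, though of 25 other probesets Btrc was called lower at 0h (-0.29), and the smallest p-values were those of the small Maf gene Maff (0.59, limma adjusted p = 0.0127) and of the coactivator Ep300 (0.44, limma adjusted p = 0.013) at 8h.

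Of 21 glutathione S-transferases, 1 was called against Ctrl at 0h, Gsta4, which was lower (-0.38, limma adjusted p = 0.00968) and kept its call only without CIE mouse 11 or Ctrl mouse 12 among 12 fits with 1 mouse left out (largest limma adjusted p = 0.0404). Of 6 superoxide dismutase, catalase and paraoxonase genes, 1 was called, Pon2 at 0h (0.40, limma adjusted p = 0.00536), kept in 6 of 12 such fits and lost without CIE mice 5, 17 or 43 or Ctrl mice 12, 48 or 78 (largest limma adjusted p = 0.0165). Averaged over its probesets, Pon2 was 0.18 higher and not called (limma adjusted p = 0.0198). Of 20 glucocorticoid targets, a list also chosen with earlier results of these data known, 9 rose at 0h and 7 at 8h, and none fell. Of all probesets, 7.28% were called at 0h and 3.39% at 8h. None of the 20 was called at 72h or 7d, and the list medians were 0.39 at 0h, 0.39 at 8h, -0.07 at 72h and -0.04 at 7d. Among the 4 of smallest p at each time, Arrdc2 (1.26), Nfkbia (0.51) and Fkbp5 (0.50) rose beside Plin4 at 0h, and Mfsd2a (0.65), Sgk1 (0.86) and Sult1a1 (1.18) beside Plin4 at 8h. Plin4, a lipid droplet protein, was 2.54 higher at 0h (limma adjusted p = 4.11e-07) and 2.19 higher at 8h (limma adjusted p = 6.68e-05). These named calls were kept with each mouse left out. Fitted to the arrays of that time alone, Fkbp5 and Nfkbia at 0h were not called (limma adjusted p = 0.0288 and 0.0134), nor were Mfsd2a, Sgk1 and Sult1a1 at 8h. In repeat group 1 alone, Sgk1 and Sult1a1 at 8h were not called either. The part of the glucocorticoid targets, or of the striatal markers, in the values of the members was not tested beyond the fits with marker terms.

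**Figure D5:**
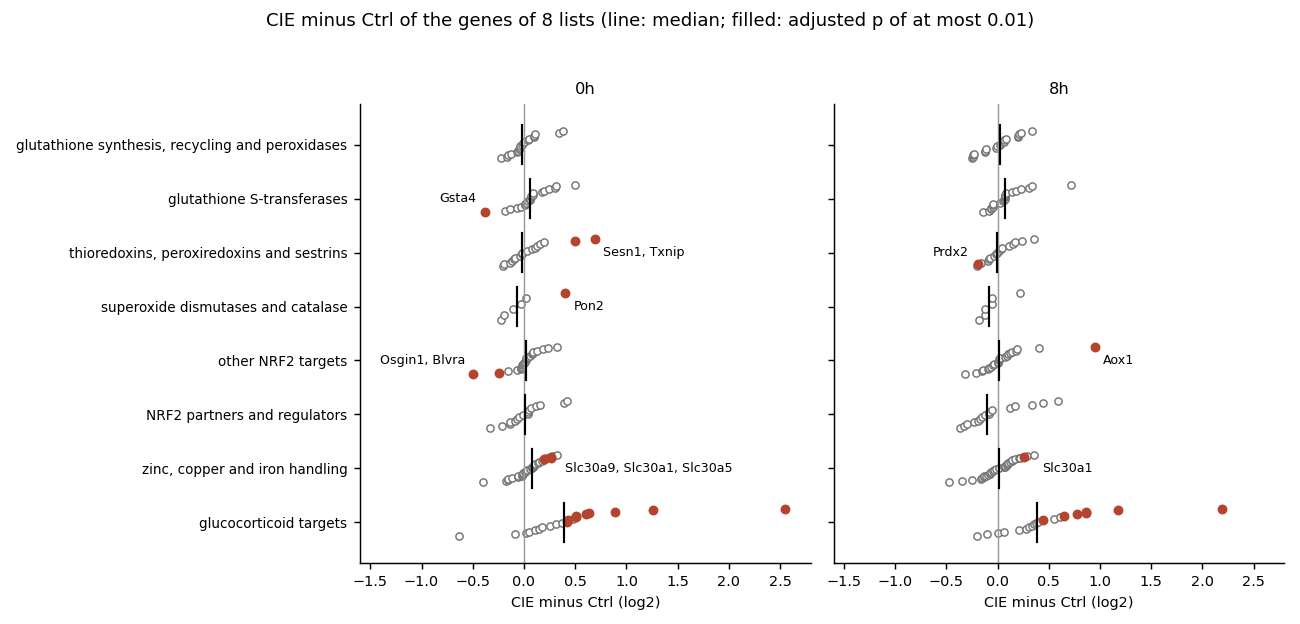
CIE minus Ctrl (log2, horizontal axis) at 0h and at 8h for the measured genes of 8 lists, 1 reference probeset for each gene. Vertical lines are list medians, filled points have a limma adjusted p of at most 0.01, and names are given for the filled points outside the glucocorticoid targets. The median of the glucocorticoid targets lies at 0.39 at both times, and those of the antioxidant and metal lists lie between -0.11 and 0.07.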

How the data were processed

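Expression was measured on 47 Affymetrix Mouse 430 2.0 arrays, each hybridised with medial PFC RNA of 1 mouse. The authors deposited log2 values after RMA (version not given in the sources used here), and the study's methods describe quantile normalization and an adjustment of the PFC arrays for repeat group with ComBat before testing. Arrays give no read depth, so the number of mice limits the precision. Groups were taken from the labels, and 0 value columns were left unused. Probesets were named through the platform annotation: 34945 had 1 symbol, 932 several and 9160 none listed, and 34741 symbols were updated through the Entrez ID to RefSeq (GRCm38.p6).

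A mean per group was fitted to all 45037 probesets and 47 arrays with limma 3.58.1 in R 4.3.3 (with the data.table package, version 1.17.8), and p-values were adjusted by Benjamini-Hochberg over all probesets, with a threshold of 0.01 and, as an alternative, 0.05. Intervals are 95% intervals of that fit. Contrasts were CIE minus Ctrl at each time, differences of these effects from that at 0h, and times within CIE and within Ctrl. The pairwise times and the fits with striatal, meningeal and astrocyte marker means as a term were chosen after seeing the data. The procedure was tested on simulated data. Figures and promoter searches used Python 3.11.15, pandas 2.3.3 and matplotlib 3.10.9.

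The members and lists were chosen with earlier results of these data known. All member probesets were named. Of each list, the genes called at a time were named, up to 4 of smallest p, or, with none called, the 2 of smallest p at 0h and 8h together. List genes were represented by 1 reference probeset, the one with the highest mean level, and those with suffix _x_at or _s_at were taken only where a gene had no other. For Mt1, Mt2, Mt3, Hmox1 and Nfe2l2 the 3 other genes of highest Pearson correlation were named, and for Mt1 this was done for both probesets.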

Additional observations from a re-analysis of the deposited data

Results flagged for a closer look

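In 13 of 152 combinations of a member probeset and a group, 1 mouse lay far from the others by Dixon's criterion at the 95% level, where chance alone gives about 1 in 20. Ctrl 0h mouse 12 was low in Mt2 (12.22) and Nqo1 (6.16), and CIE 8h mouse 15, whose array stood apart, was low in Mt2 (12.49) and Gclm probeset A (10.36). Ctrl 72h mouse 68 was high in Hmox1 (6.41) and Srxn1 probeset C (7.25). For Srxn1 probeset A, CIE 0h mouse 17 (10.45) and CIE 7d mouse 65 (10.04) were low. For Mt1 probeset B, Ctrl 8h mouse 75 (6.29) and Ctrl 72h mouse 24 (6.07) were high. The others were Mt2 in Ctrl 7d mouse 28 (11.96, low), Gclc probeset B in Ctrl 7d mouse 46 (10.20, high) and Gclm probeset B in CIE 7d mouse 45 (9.07, low).

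List genes called against Ctrl at some time were also compared between times, by a limma contrast of the effects of CIE themselves. The effect differed from that at 0h for 3 of them. All 3 had been called at 0h, so a smaller later effect was partly built into the choice. Of all probesets, 3.41% were called for 8h, 1.8% for 72h and 0.273% for 7d. On other probesets of list genes, Txnl1 and Abcc5 were called with a higher later effect and Trim16 and Hif3a with a lower one. The effect on Sesn1 was smaller than at 0h both at 8h (-0.53, limma adjusted p = 0.00481) and at 72h (-0.51, limma adjusted p = 0.00891). That on Plin4 was smaller at 72h (-3.11, limma adjusted p = 6.83e-05) and at 7d (-3.25, limma adjusted p = 1.01e-04), and that on Arrdc2 at 72h (-1.37, limma adjusted p = 0.00154). These comparisons share the 0h mice.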

How the results depend on the processing

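The counts of called members were small and moved with the settings. At 0h the count of 1 became 2 at a threshold of 0.05 and 2 with astrocyte markers as a term, and 0 with one value per gene. At 8h the count of 1 became 2 with repeat group as a term and 3 at 0.05, and 0 with repeat group 1 alone, with array weights, with one value per gene and with the arrays of that time alone, a fit in which 0.0466% of all probesets were called. At 72h array weights gave 1, and at 7d array weights and a threshold of 0.05 gave 1 each, against 0. For the F test of any difference the count of 1 became 2 with repeat group as a term, with repeat group 1 alone and with striatal markers as a term, and 6 with array weights and at 0.05. For Ctrl over time the count of 1 became 2 with repeat group as a term, 3 with repeat group 1 alone, 9 with array weights and 4 at 0.05. Apart from the 0.0466% above, the shares of all probesets called under these settings are not given here. These counts therefore cannot be read as results about the members. With 1 mouse left out, the counts ranged from 0 to 1 at 0h, 0 to 1 at 8h, 0 to 0 at 72h, 0 to 1 at 7d, 0 to 2 for any difference, 0 to 2 for Ctrl over time and 7 to 8 for CIE over time. The differences of effects gave 0 under each alternative. The cause of these shifts was not tested.

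Of 586 refits of 55 single values under another setting, 511 kept their side of the threshold, 74 lost the call, 1 gained it (Mt2 at 0h with astrocyte markers as a term) and 0 turned direction. The falls of Mt1 probeset A, Mt2, Hmox1, Nqo1 and Gclm probeset A at CIE 7d against CIE 0h were called under each of 10 settings. Fitted to the arrays of that time alone, the list genes Slc30a1, Slc30a5, Slc30a9, Blvra and Gsta4 at 0h were not called (limma adjusted p = 0.0225, 0.0173, 0.0239, 0.0474 and 0.0397), nor were Slc30a1, Aox1 and Prdx2 at 8h (limma adjusted p = 0.0591, 0.0442 and 0.0561). No paired analysis was possible because the groups share no replicate (mouse) numbers.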

Other observations

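Some genes of the lists had further probesets that were called, and those named here were chosen after their values were seen. Gstm7, a glutathione S-transferase, was called higher in CIE at 3 of the 4 times on a probeset other than its reference one, by 0.40 at 0h (limma adjusted p = 0.00412), 0.46 at 72h (limma adjusted p = 0.00688) and 0.65 at 7d (limma adjusted p = 1.05e-04). At 8h this probeset averaged 6.28 in CIE and 5.91 in Ctrl and was not called. At 7d it ranged from 5.95 to 6.23 in CIE mice, against 5.35 to 5.58 in Ctrl mice, without overlap, and was kept in 12 of 12 fits with 1 mouse left out. At 0h it was kept in 8 of 12, and lost without CIE mouse 17 or Ctrl mice 12, 56 or 78, and at 72h it was kept in 3 of 12, and lost without CIE mice 3, 29, 35, 63 or 71 or Ctrl mice 6, 24, 34 or 44. The reference probeset of Gstm7 was not called at any time, and averaged over its probesets the differences were 0.29 at 0h, 0.11 at 72h and 0.27 at 7d, none of them called (limma adjusted p = 0.024, 0.646 and 0.0913). At 8h the peroxiredoxin Prdx4 was 0.93 higher (limma adjusted p = 0.0017) and the zinc transporter Slc39a14 0.64 higher (limma adjusted p = 0.00265). Both were read from a probeset other than the reference one and were not refitted with mice left out.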
